A study of Mus musculus with 50 samples.

Results

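The genes described here are 36 markers of T cells, natural killer (NK) cells and B cells, listed by symbol and read in 50 mammary tumours of MMTV-ErbB2 mice. Of the 36, 34 had at least 1 probe set annotated to a single gene, and for each the probe set with the highest mean was read. A gene was called readable when its mean was at least 4.09 log2, the 25th percentile of the means of all 34472 probe sets. By that limit 31 of the 36 were readable, among 18045 genes tested in all, out of 22180 that could be named.

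The tumours arose spontaneously in female mice of a backcross (F1Bx), in which F1 animals of C57BL/6J and FVB/NJ were crossed to FVB/NJ mice carrying MMTV-Erbb2, so the animals are genetically mixed. That transgene is driven by the mouse mammary tumour virus promoter, which is active in mammary epithelium. Each tumour was sampled by biopsy before drug treatment and hybridised to 1 Affymetrix array. The drug is named as doxorubicin in the series title and as docetaxel in the sample labels, no ages are given here, and no samples taken after treatment or from normal gland were analysed here. Names such as mid60 and mid79 come from the sample titles, and all 50 tumours form 1 group.

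T cells recognise antigen through a receptor that signals through the CD3 chains. The CD4 and CD8 co-receptors divide them into helper and regulatory cells on the one hand and cytotoxic cells on the other. NK cells and cytotoxic T cells share a killing machinery of perforin and granzymes, while B cells signal through the CD79 chains and depend on the factor Pax5. In a bulk biopsy, fewer cells of a type and less RNA per cell cannot be told apart.

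3 arrays stood apart from the rest, with a mean correlation with the other arrays of 0.916 in mid79, 0.931 in mid60 and 0.954 in mid100, against at least 0.96 in every other array. Erbb2 itself was 9.02 log2 in mid60 and 9.25 in mid79, against 11.10 to 11.94 in the other 48 tumours, and Epcam, an epithelial adhesion molecule, was 10.45 and 8.61 against 10.89 to 11.74. Ptprc (CD45), carried by leukocytes in general, was 9.04 in mid60 and 9.43 in mid79, against 5.95 to 8.94 in the other 48. In mid79, 13 of 13 adipocyte markers lay above all 48 tumours (mean level 11.38 log2, against 5.43 to 7.96), 27 of 27 proliferation genes lay below them (5.84, against 6.73 to 8.69), and 11 of 15 luminal epithelial markers lay below them. In mid60, 12 of 12 skin markers lay above the other 48 (mean level 8.57 log2, against 4.84 to 5.14). Of the 15 luminal epithelial markers, 4 lay above the other 48 in mid60 and 2 lay below them, Epcam among the latter. The mean level of these luminal markers in mid60 lay above that of each of the other 48, so the low Epcam did not stand for the list there. The part of this tissue make-up in the lymphocyte values was not tested. Counts of members below are given over all 50 tumours and over the 48 without mid60 and mid79, while slopes and correlations of single genes and counts over other gene lists are over the 48 where nothing else is said; mid100 is kept unless stated.

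Over all 50 tumours the lymphocyte genes were highest in mid79 more often than in any other tumour. Of the 31 readable members, 17 had their highest value in mid79 (10.1% of all tested genes did) and 3 in mid60 (7.85% of all tested genes). In 11 members mid60 and mid79 both lay above the other 48 tumours (2.06% of all tested genes), and these were the B cell genes Ms4a1, Cd79a, Cd79b, Blk and Pax5 together with Cd3e, Cd4, Cd5, Ptpn22, Stat4 and Ikzf3. Against the median of the other 48, 17 members were at least 2-fold higher in mid79 (8.04% of all tested genes) and 10 in mid60 (6.72%). Ms4a1 is in all of these counts but the 3 of mid60, although it passed the lower limit only through mid60 and mid79. The members' median SD was 0.34 log2 over 50 tumours and 0.19 without mid60 and mid79, while that of all tested genes was 0.23 and 0.21. Between the 5th and 95th percentiles over tumours, 9 of the 31 members were at least 2-fold apart (23.8% of all tested genes). Without mid60 and mid79 there were 8 (20.3%), namely Cd3e, Cd3g, Cd4, Ptpn22, Il7r, Gzmb, Xcl1 and Ikzf1, and Il2rb dropped out.

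**Figure D1:**
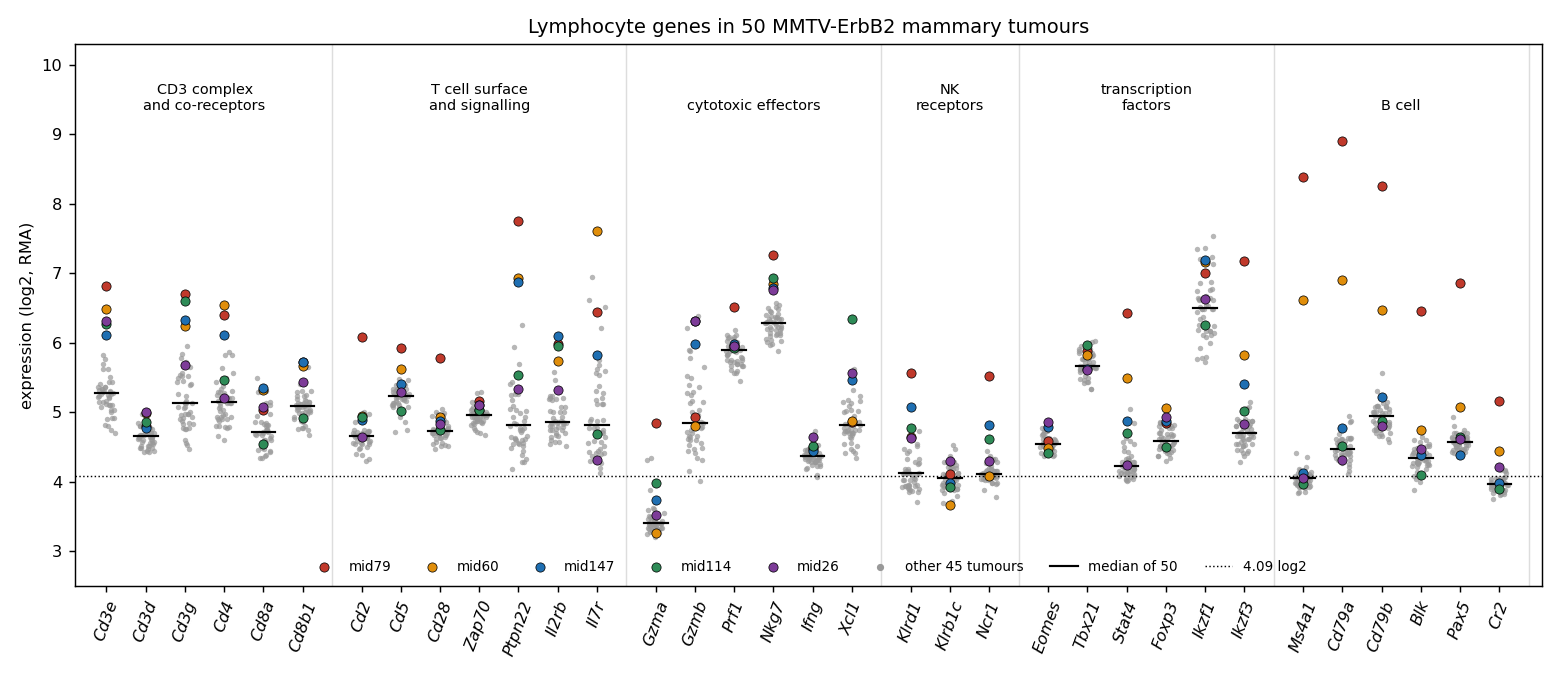
Expression (log2, RMA) of the 34 measured lymphocyte genes, grouped by role, with 1 point per tumour and the median of 50 tumours as a bar; 5 tumours are coloured, mid60 and mid79 as the tumours that stand apart and mid26, mid114 and mid147 as the next highest for Cd3e, a choice made from the values. The 6 B cell genes have mid79 highest and mid60 next, whereas Gzmb and Xcl1 have both tumours near the median; the dotted line is the lower limit of 4.09 log2.

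The B cell genes were low in 48 tumours and high in mid60 and mid79. Cd79a, a signalling chain of the B cell receptor, ran from 4.12 to 4.95 log2 with a median of 4.47 in the 48 tumours, and was 6.91 in mid60 and 8.91 in mid79. Its partner chain Cd79b ran from 4.58 to 5.57 with a median of 4.94, and was 6.47 in mid60 and 8.26 in mid79. Ms4a1, which encodes CD20 of mature B cells, ran from 3.84 to 4.42 with a median of 4.05, and was 6.61 in mid60 and 8.38 in mid79. None of the 48 tumours came within the range of mid60 and mid79 for these 3 genes, and mid79 stood 21.8-fold above the median of the 48 for Cd79a, 20.1-fold for Ms4a1 and 9.99-fold for Cd79b. In mid60 the same folds were 5.45, 5.90 and 2.89.

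Pax5, the factor that fixes B cell identity, was 5.08 in mid60 and 6.86 in mid79, against 4.36 to 4.93 in the other 48 tumours. Blk, a B lineage kinase of the Src family, was 4.74 and 6.46 against 3.89 to 4.65. For Pax5 and Blk, mid79 was 4.87-fold and 4.33-fold above the median of the 48, while mid60 was 1.42-fold and 1.31-fold above it. Cr2, the complement receptor CD21, was below the readable limit with a mean of 4.01, and was 4.45 in mid60 and 5.17 in mid79 against 3.76 to 4.21. Ms4a1 passed the limit with a mean of 4.18 only through mid60 and mid79, since the mean of the other 48 was 4.04, so its tests support nothing. Without it the counts over 50 tumours given below would be 24 in place of 25 with Cd3e, 20 in place of 21 with Cd79b and with Cd4, 13 in place of 14 with proliferation and 19 in place of 20 with Erbb2. With 1 array per tumour, mid60 and mid79 carry no test.

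Other B lineage genes, outside the 36, had the same tumours on top. Of 16 further B cell genes tested, 13 lay above all 48 tumours in mid79 and 6 in mid60, among them Bank1, a B cell scaffold protein (7.03 in mid60 and 9.28 in mid79, against 4.89 to 5.99), and Cd22, an inhibitory B cell receptor (6.14 and 7.98, against 4.89 to 5.64). By comparison, 10.1% of all tested genes were highest of 50 in mid79 and 7.85% in mid60, a stricter condition than lying above all 48. For 7 plasma cell genes the order of these tumours was turned: their mean level was 7.89 in mid60 and 7.25 in mid79, against 5.72 to 6.80 in the 48, with 6 and 3 genes respectively above all 48. Jchain, which joins secreted antibody, was 9.47 in mid60 and 8.59 in mid79, but mid147 reached 8.81 among the 48, whose median was 3.76. The 6 lymphoid tissue genes had a mean level of 6.19 in mid60 and 5.85 in mid79, against 4.80 to 5.90 in the 48, so mid79 lay inside the range of the others.

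The CD3 and co-receptor genes varied over the 48 tumours as well. Cd3e, a chain of the CD3 signalling complex, ran from 4.70 to 6.31 with a median of 5.27, and was 6.48 in mid60 and 6.82 in mid79. The highest of the 48 were mid26 at 6.31, mid114 at 6.27 and mid147 at 6.12, which lay closer to mid60 than to the median. Cd3g, another CD3 chain, ran from 4.48 to 6.60 with a median of 5.13, and was 6.24 in mid60 and 6.71 in mid79. Here mid114 at 6.60 and mid147 at 6.33 lay above mid60, so the groups overlapped. Cd3d, the remaining measured chain of the complex, had an SD of 0.15 over 50 tumours, ran from 4.43 to 5.01 in the 48 and was 4.99 and 4.81 in mid60 and mid79.

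Cd4 ran from 4.60 to 6.12 in the 48 tumours with a median of 5.15, and was 6.55 in mid60 and 6.40 in mid79. Cd8a ran from 4.34 to 5.50 with a median of 4.72, and was 5.32 in mid60 and 5.03 in mid79. The second CD8 chain, Cd8b1, ran from 4.67 to 5.72 with a median of 5.09, and was 5.66 and 5.72. For Cd4 both tumours lay above all 48, whereas for Cd8a 2 of the 48 lay above mid60 and 9 above mid79. Cd247, a further chain of the complex, and Lck, the kinase that acts first on it, had no probe set named to a single gene here and were not analysed.

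Among the T cell surface and signalling genes, Ptpn22, a phosphatase that restrains receptor signalling, ran from 4.19 to 6.87 in the 48 tumours with a median of 4.79, and was 6.94 in mid60 and 7.75 in mid79. The value of mid147 (6.87) lay just below that of mid60. Il7r, the interleukin-7 receptor, ran from 4.13 to 6.95 with a median of 4.78, and was highest in mid60 at 7.61, with mid79 at 6.45 below 3 of the 48. Il2rb, a chain of the receptors for interleukin-2 and interleukin-15, ran from 4.52 to 6.10 with a median of 4.86, and was 5.74 and 5.99, below the 6.10 of mid147. These 3 genes were thus high in some of the 48 tumours as well. Cd2, an adhesion molecule, and Cd28, the co-stimulatory receptor, lay above all 48 in mid79 but not in mid60 (6.09 against 4.30 to 5.0, and 5.78 against 4.47 to 5.05), with mid60 inside the range at 4.95 and 4.94. Cd5, a T cell inhibitory receptor, was 5.63 and 5.93 against 4.72 to 5.48. Zap70, the kinase recruited to CD3, had mid60 and mid79 (5.04 and 5.16) inside its range of 4.68 to 5.29.

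Of the cytotoxic effector genes, Gzmb, Xcl1 and Ifng did not share the pattern of the B cell genes. Nkg7 and Prf1 were highest in mid79, with mid60 inside the range of the 48. Gzmb, a killing protease of cytotoxic granules, ran from 4.01 to 6.39 in the 48 tumours with a median of 4.85, and was 4.81 in mid60 and 4.93 in mid79. Xcl1, a chemokine made by activated CD8 T cells and NK cells, ran from 4.34 to 6.35 with a median of 4.81, and was 4.87 and 4.86. For both genes mid60 and mid79 lay in the middle of the 48, and the highest tumours were others: mid99 (6.39), mid26 and mid114 (6.31 each) for Gzmb, and mid114 (6.35) for Xcl1. Nkg7, a protein of cytotoxic granules, ran from 5.89 to 6.93 with a median of 6.28, and was 6.85 in mid60 and 7.27 in mid79. Prf1, the pore-forming protein perforin, was 5.96 and 6.52 against 5.45 to 6.18. Ifng, the cytokine interferon gamma, had an SD of 0.12 and was 4.50 and 4.47 against 4.07 to 4.73. Gzma was below the readable limit with a mean of 3.50, and was 3.27 in mid60 and 4.85 in mid79 against 3.21 to 4.34.

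Of the NK receptor genes, Klrd1 (CD94) ran from 3.71 to 5.07 in the 48 tumours with a median of 4.12, and was 4.65 in mid60 and 5.56 in mid79. Ncr1 (NKp46) ran from 3.78 to 4.82 with a median of 4.12, and was 4.09 and 5.52. In both genes mid79 was highest and mid147 next, and mid60 stood inside the range of the 48. Klrb1c (NK1.1) was below the limit with a mean of 4.06, while Ncr1 (4.18) and Klrd1 (4.19) lay just above it.

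Among the transcription factors, Stat4, which acts downstream of interleukin-12, ran from 4.01 to 5.05 in the 48 tumours with a median of 4.22, and was 5.49 in mid60 and 6.43 in mid79. Ikzf3 (Aiolos), a factor of mature lymphocytes, ran from 4.28 to 5.41 with a median of 4.69, and was 5.83 and 7.18. For these 2 genes mid79 was 4.63-fold and 5.62-fold above the median of the 48. Ikzf1 (Ikaros), expressed across the blood lineages, ran from 5.72 to 7.54 with a median of 6.49, and mid60 and mid79 (7.17 and 7.0) lay inside that range. Foxp3, the factor of regulatory T cells, was 5.06 in mid60 and 4.85 in mid79, against 4.30 to 4.93. Eomes and Tbx21, T-box factors of cytotoxic and helper cells, had mid60 and mid79 inside their ranges of 4.37 to 4.86 and 5.34 to 6.03.

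The next question was which members moved together over tumours. The B cell genes moved together over all 50 tumours, whereas without mid60 and mid79 little shared movement was measured: the median Pearson r over their 10 pairs was 0.88 with these tumours and 0.062 without. Without them each of the 5 readable B cell genes had an SD under 0.2 log2. A lack of shared movement thus cannot be told from a lack of measurable spread. Between B cell and other members the median over 130 pairs went from 0.47 to 0.033. The T, NK and transcription factor members kept a positive median of 0.24 over 325 pairs (0.34 with mid60 and mid79), with 49 pairs above 0.5. These medians describe pairs that share the same tumours and arrays, and carry no test. The B cell pairs include those of Ms4a1, which was readable only through mid60 and mid79.

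**Figure D2:**
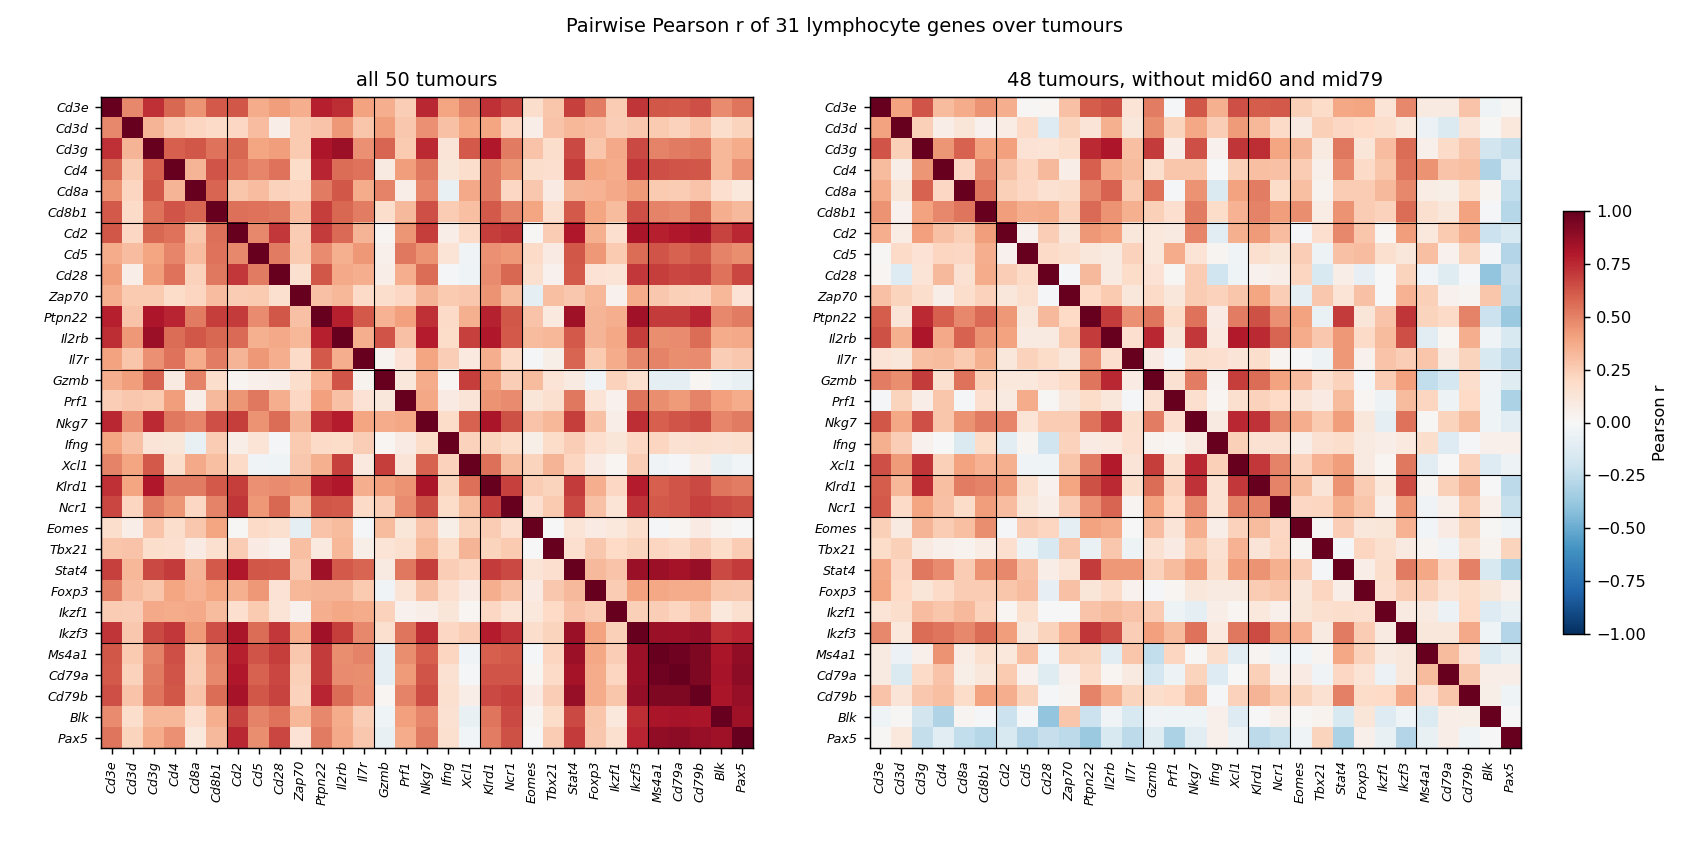
Pearson r over tumours for each pair of the 31 readable members, on a colour scale from -1 to 1, over all 50 tumours and over the 48 without mid60 and mid79; lines separate the groups by role. The B cell block at the lower right has a median r of 0.88 over 50 tumours and 0.062 over 48, while the pairs among the T, NK and transcription factor members have a median r of 0.34 and 0.24.

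To ask which members followed the T cell signal, each gene was fitted on Cd3e with limma, and the slope is the change in log2 expression per SD of Cd3e. Over the 48 tumours 8 of 30 members rose with Cd3e at an adjusted p under 0.05 (0.355% of all tested genes) and 0 fell (0.0443%), with 0 falling at an unadjusted p under 0.05. For counts at an unadjusted p, here and below, the share of all tested genes is not given, so they describe the members only. The 8 were Cd3g, the receptor and signalling genes Il2rb and Ptpn22, the effectors Xcl1, Nkg7 and Gzmb, and the NK receptors Ncr1 and Klrd1. Over all 50 tumours 25 of 30 rose (9.52% of all tested genes). Of the 5 B cell genes 0 rose over the 48 tumours (1 at an unadjusted p under 0.05 with limma), and of the 6 transcription factors 0 rose (3 at an unadjusted p under 0.05). Fitted on ranks over all 50 tumours, 2 members rose, Cd3g and Ptpn22.

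Xcl1 rose by 0.24 ± 0.041 log2 (SE, n = 48) per SD of Cd3e, with an adjusted p of 0.000831 from limma. Its Pearson r with Cd3e was 0.644 (permutation p = 1e-05) and Spearman's rho 0.441 (p = 0.00164), and r was 0.463 without mid26 and mid114, the tumours farthest from the median of Cd3e. Il2rb rose by 0.21 ± 0.037 (limma adjusted p = 0.000831), with r = 0.640 (permutation p = 2e-05), rho = 0.455 (p = 0.00118) and r = 0.542 without those 2 tumours. Cd3g rose by 0.29 ± 0.051 (limma adjusted p = 0.00134), with r = 0.625 (permutation p = 3e-05), rho = 0.481 (p = 0.00067) and r = 0.527 without them. These 3 relations thus held without the most extreme tumours, at a lower r. Gzmb had a slope of 0.31 ± 0.074 (limma adjusted p = 0.0396) and an r of 0.509 that became 0.336 without mid26 and mid114. In all, 244 such correlations were computed in each set of tumours, permutation p-values are two-sided and 1e-05 is the smallest they can give, and the adjusted p-values are those of limma over all genes tested.

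**Figure D3:**
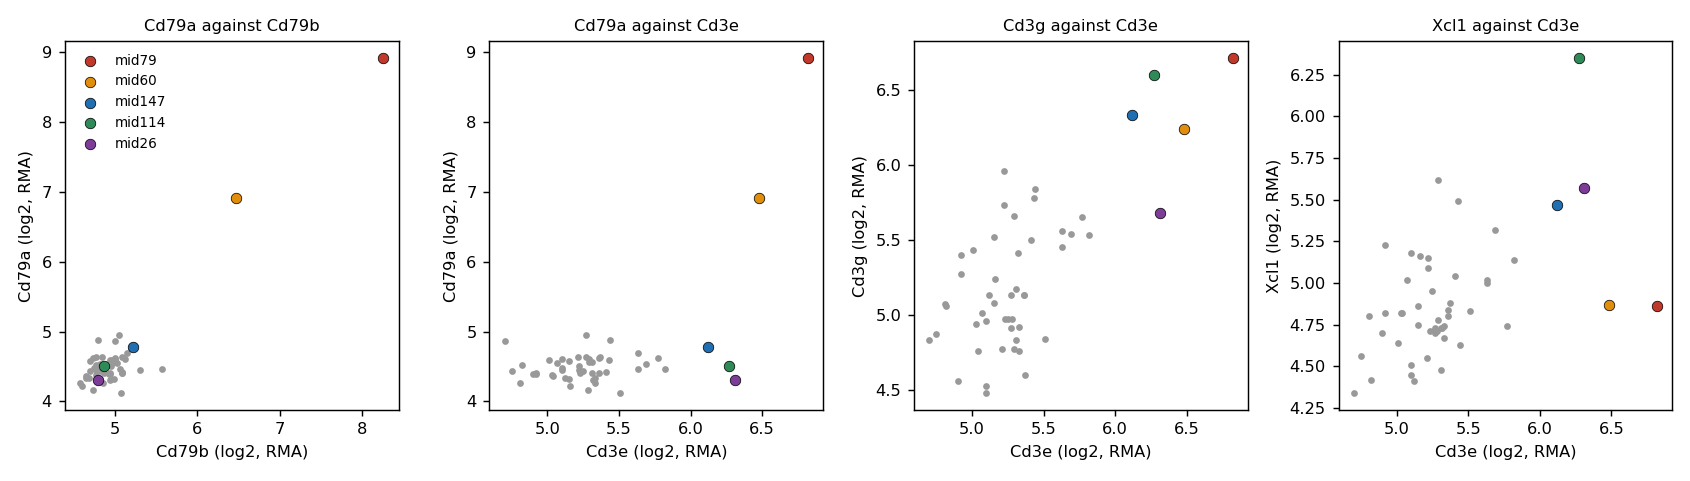
Expression (log2, RMA) of Cd79a against Cd79b, Cd79a against Cd3e, Cd3g against Cd3e and Xcl1 against Cd3e, with 1 point per tumour and mid79, mid60, mid147, mid114 and mid26 coloured. In the panels of Cd79a the relation rests on mid60 and mid79, while Cd3g (r = 0.625) and Xcl1 (r = 0.644) rise with Cd3e over the other 48 tumours, and mid60 and mid79 are near the median of Xcl1 (4.87 and 4.86, against 4.81).

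Sequence upstream of the start site is shown for 5 members, because Cd3e, Xcl1, Nkg7 and Gzmb rose together over the 48 tumours and Cd79a is the B cell gene with the widest range. The sequences are the 250 bases before the start in RefSeq (GRCm38.p6), 5′ to 3′ on the gene's strand, and capitals mark matches to 3 motifs on either strand: the ETS motif AGGAAGTG, the RUNX motif TGTGGTT and the T-box motif GGTGTGA.
Cd3e (chr9:45009612-45009861, minus strand): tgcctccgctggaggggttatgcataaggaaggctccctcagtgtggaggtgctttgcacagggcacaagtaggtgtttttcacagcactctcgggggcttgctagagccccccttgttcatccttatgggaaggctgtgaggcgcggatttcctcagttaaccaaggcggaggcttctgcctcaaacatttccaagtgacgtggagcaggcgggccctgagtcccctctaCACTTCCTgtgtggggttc
Xcl1 (chr1:164935523-164935772, minus strand): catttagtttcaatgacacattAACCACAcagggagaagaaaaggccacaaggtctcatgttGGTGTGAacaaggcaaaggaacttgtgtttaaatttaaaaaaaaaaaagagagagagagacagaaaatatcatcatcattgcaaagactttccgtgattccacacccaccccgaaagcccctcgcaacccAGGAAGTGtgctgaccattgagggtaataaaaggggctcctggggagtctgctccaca
Nkg7 (chr7:43436888-43437137, plus strand): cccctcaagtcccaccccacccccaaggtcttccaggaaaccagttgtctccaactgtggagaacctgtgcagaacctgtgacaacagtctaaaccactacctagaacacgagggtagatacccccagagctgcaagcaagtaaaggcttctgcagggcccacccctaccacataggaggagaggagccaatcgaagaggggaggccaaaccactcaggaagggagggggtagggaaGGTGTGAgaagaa
Gzmb (chr14:56262335-56262584, minus strand): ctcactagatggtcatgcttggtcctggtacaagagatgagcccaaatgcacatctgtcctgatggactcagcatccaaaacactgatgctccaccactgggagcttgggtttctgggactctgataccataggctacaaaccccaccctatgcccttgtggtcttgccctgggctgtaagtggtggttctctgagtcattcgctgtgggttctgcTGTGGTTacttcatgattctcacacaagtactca
Cd79a (chr7:24897247-24897496, plus strand): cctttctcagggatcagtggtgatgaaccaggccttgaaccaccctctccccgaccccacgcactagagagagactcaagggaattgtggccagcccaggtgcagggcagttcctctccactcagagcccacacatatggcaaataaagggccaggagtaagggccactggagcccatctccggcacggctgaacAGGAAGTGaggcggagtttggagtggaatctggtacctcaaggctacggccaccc
Of the 26 members with such a window, 5 held the ETS motif (Cd3d, Cd3e, Cd79a, Lck and Xcl1; 3.62% of 27025 genes did), 5 the RUNX motif (Gzma, Gzmb, Lck, Ncr1 and Xcl1; 5.08% of all) and 2 the T-box motif (Nkg7 and Xcl1; 3.84% of all). Xcl1 was the member with matches to all 3. The matches printed do not overlap each other, and a match is a description of letters in this window only.

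The genes most like Cd3e over the 48 tumours, ranked by the moderated t of that fit, came partly from outside the 36. The 10 were Ctsw, Ltb, AW112010, Gbp5, Cxcl9, Gbp10, Gm12250, Xcl1, Itgae and Il2rb. Ctsw, a cathepsin of cytotoxic lymphocytes, rose by 0.27 ± 0.033 log2 per SD of Cd3e (limma adjusted p = 3.08e-06). Ltb, a lymphotoxin chain, rose by 0.18 ± 0.027 (limma adjusted p = 0.000142), and Cxcl9, a chemokine for activated T cells, by 0.50 ± 0.079 (limma adjusted p = 0.000244). Itgae, the integrin chain CD103, rose by 0.16 ± 0.028 (limma adjusted p = 0.000831), and Gbp5 and Gbp10 are interferon-induced GTPases. Of the lists of other genes, MHC class I had 4 of 8 tested genes that rose with Cd3e (the 3 leading genes were Nlrc5, B2m and Psmb9), T cell attracting chemokines 3 of 8 (Cxcl9, Ccl22, Ccl5), further cytotoxic and NK genes 3 of 16 (Ctsw, Ccl5, Klrk1), and interferon response 3 of 20. Of 17 further T cell genes 0 rose with limma (6 at an unadjusted p under 0.05), and of 16 further B cell genes 0 rose (1 at an unadjusted p under 0.05).

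For the B cell signal each gene was fitted on Cd79b. Over all 50 tumours 21 of 30 members rose with Cd79b (14% of all tested genes), T and NK genes included. Over the 48 tumours 0 of 30 rose at an adjusted p under 0.05 with limma (0% of all tested genes). At an unadjusted p under 0.05 it was 10, for which the share of all tested genes is not given. Cd79a, the partner chain, had a slope of 0.68 ± 0.037 log2 per SD over 50 tumours (limma adjusted p = 2.92e-20) and 0.049 ± 0.025 over 48 (limma adjusted p = 0.329). Its r with Cd79b was 0.933 over 50 tumours (permutation p = 3e-05; rho = 0.428, p = 0.00218) and 0.277 without mid60 and mid79 (permutation p = 0.057; rho = 0.353, p = 0.0141), so the pooled value rests on these 2 tumours. Over the 48 the SD was 0.18 log2 for Cd79a and 0.19 for Cd79b, which left little spread to relate. Among the genes that rose with Cd79b over all 50 tumours, the lowest limma adjusted p over the 48 was 0.0595. It belonged to genes such as Dnase1l3, Tlr1 and Ccl11, and Stat4 and Ptpn22 among the members reached the same value.

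The co-receptors Cd8a and Cd4 were used as predictors in the same way. Over the 48 tumours 4 of 30 members rose with Cd8a (0.155% of all tested genes), namely Cd3g, Il2rb, Gzmb and Cd8b1, and over all 50 tumours 6 did (0.344%). Il2rb rose by 0.20 ± 0.038 log2 per SD of Cd8a (limma adjusted p = 0.0127), with r = 0.592 (permutation p = 3e-05), rho = 0.628 (p = 2e-05) and r = 0.453 without mid142 and mid147. Of the MHC class I list 5 of 8 genes rose with Cd8a over the 48 tumours. The count of members depended on single tumours: it was 0 without mid147, 2 without each of mid26, mid36, mid65, mid111, mid128 and mid142, 7 without mid9 and 9 without mid114. On ranks over all 50 tumours it was 2.

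With Cd4, 6 of 30 members rose over the 48 tumours (3.64% of all tested genes), namely Ptpn22, Ikzf3, Cd8b1, Stat4, Cd3g and Ms4a1, and 21 over all 50 (11.9%). Ms4a1 was in the test only through mid60 and mid79, and without it 5 of 29 rose over the 48 tumours. Ptpn22 rose by 0.31 ± 0.060 log2 per SD of Cd4 (limma adjusted p = 0.00177), with r = 0.597 (permutation p = 2e-05), rho = 0.329 (p = 0.0229) and r = 0.375 without mid100 and mid147. Over the same tumours 14 of 17 macrophage genes, 8 of 10 pan-leukocyte genes and 13 of 14 fibroblast and matrix genes rose with Cd4, and whether Cd4 differs from Cd3e or Cd8a in this was not tested. With Cd3e 0 genes of these 3 lists rose with limma, and 10, 9 and 2 reached an unadjusted p under 0.05. The count of members was 2 without mid9 or without mid147, 3 without mid100, and 0 on ranks over all 50 tumours.

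Members were also set beside 2 other features of the tumours: an interferon score (the mean of 20 interferon response genes, each standardised over tumours) and a macrophage score (17 genes, likewise). With the interferon score 10 of 31 members rose over the 48 tumours (4.53% of all tested genes): Il2rb, Xcl1, Cd3g, Nkg7, Klrd1, Ptpn22, Gzmb, Cd3e, Cd8a and Stat4. Over all 50 tumours 9 did (3.6%). Il2rb rose by 0.20 ± 0.038 log2 per SD (limma adjusted p = 0.000194), with r = 0.616 (permutation p = 1e-05), rho = 0.547 (p = 8e-05) and r = 0.574 without mid26 and mid30. Xcl1 rose by 0.23 ± 0.042 (limma adjusted p = 0.000213), with r = 0.613 (permutation p = 1e-05), rho = 0.587 (p = 1e-05) and r = 0.581 without those tumours. Of the 5 B cell genes 0 rose (0 at an unadjusted p under 0.05 with limma), and Cd4 had a slope of 0.031 ± 0.047 (limma adjusted p = 0.754). Of the MHC class I list 8 of 8 genes rose with the interferon score.

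With the macrophage score 9 of 31 members rose over the 48 tumours (10% of all tested genes): Ptpn22, Cd4, Stat4, Il7r, Cd79b, Cd2, Cd3g, Ikzf3 and Cd8b1. Over all 50 tumours 11 did (11.1%), and 6 without mid60 alone. Cd4 rose by 0.19 ± 0.038 log2 per SD (limma adjusted p = 8.47e-05), with r = 0.599 (permutation p = 1e-05), rho = 0.424 (p = 0.00338) and r = 0.457 without mid9 and mid100. Ptpn22 rose by 0.38 ± 0.051 (limma adjusted p = 5.4e-08), with r = 0.730 (permutation p = 1e-05), rho = 0.590 (p = 4e-05) and r = 0.629 without them. Gzmb (0.097 ± 0.084, limma adjusted p = 0.445) and Xcl1 (0.092 ± 0.052, limma adjusted p = 0.206) did not pass the test. Genes of other tissues moved with this score as well: 14 of 14 fibroblast and matrix genes, 13 of 13 skeletal muscle genes and 10 of 13 adipocyte genes rose with it over the 48 tumours, and mid100 had the highest mean level of both the macrophage list (9.52) and the muscle list (10.55). Without mid100 as well, 11 members rose.

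A model holding both scores was added after the values were seen, since the scores themselves had r = 0.326 over the 48 tumours. Over the 48 tumours 8 of 31 members rose in it with the interferon score at a given macrophage score (4.36% of all tested genes), namely Cd3g, Cd8a, Gzmb, Il2rb, Klrd1, Nkg7, Ptpn22 and Xcl1. With the macrophage score at a given interferon score 6 of 31 rose (9.61% of all tested genes), namely Cd2, Cd4, Cd79b, Il7r, Ptpn22 and Stat4. With mid60 and mid79 kept, 6 rose with the interferon score (2.96%) and 6 with the macrophage score (10.4%). The difference of the 2 slopes, interferon minus macrophage, passed the test for Cd4 (-0.24 ± 0.065, limma adjusted p = 0.00773) and for no other member (7.39% of all tested genes passed it in this direction and 5.33% in the opposite one). For Xcl1 it was 0.20 ± 0.073 (limma adjusted p = 0.0598), and for Gzmb 0.29 ± 0.13 (limma adjusted p = 0.136).

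Relations of the members to Erbb2, the oncogene, rested on mid60 and mid79, and those to proliferation on mid79. The mean level of the proliferation genes was 7.86 in mid60, near the median of 7.85 over the 48, against 5.84 in mid79. Over all 50 tumours 20 of 31 members fell as Erbb2 rose (14.7% of all tested genes) and 14 fell as the proliferation score rose (7.45%). Cd79a fell by 0.63 ± 0.051 log2 per SD of Erbb2 (limma adjusted p = 7.61e-14) over 50 tumours, and its slope over the 48 was -0.011 ± 0.026 (limma adjusted p = 0.864). Over the 48 tumours 0 members fell with Erbb2 (0.255% of all tested genes; 2 members at an unadjusted p under 0.05 with limma) and 0 with proliferation (1.72% of all tested genes; 3 members at an unadjusted p under 0.05 with limma). Leaving out mid79 alone left 12 members that fell with Erbb2 and 0 with proliferation.

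**Figure D4:**
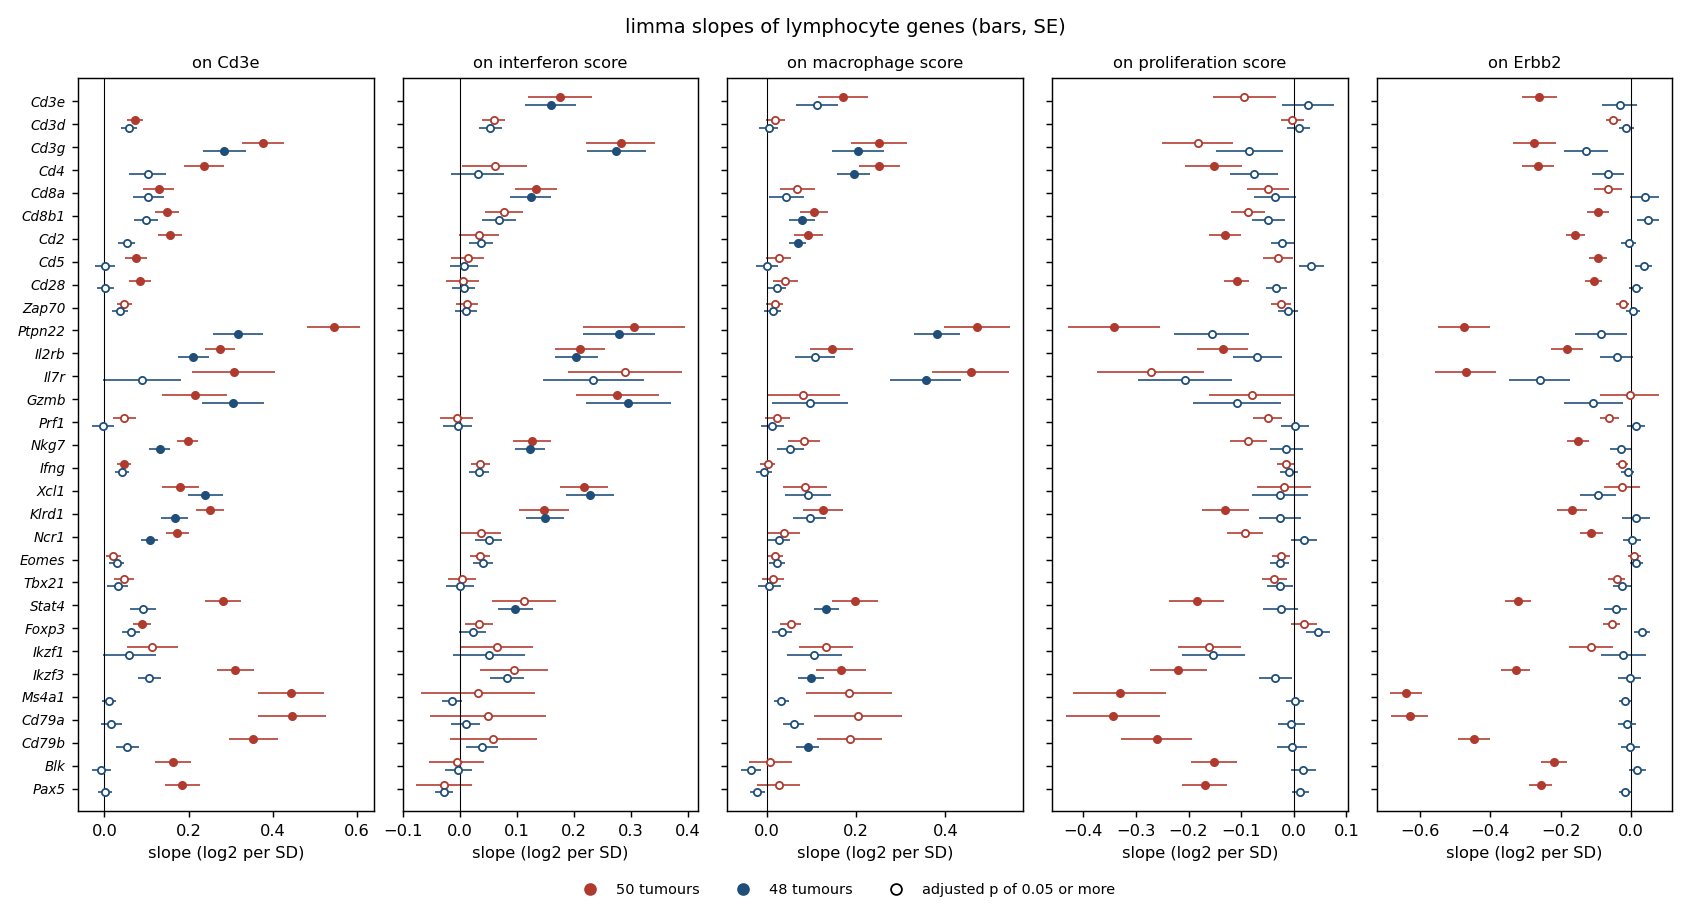
Slopes from limma (log2 per SD of the predictor, bars are SE) of the 31 readable members on Cd3e, the interferon score, the macrophage score, the proliferation score and Erbb2, over all 50 tumours and over the 48 without mid60 and mid79; filled points have an adjusted p under 0.05. With Erbb2, 20 members fell over 50 tumours and 0 over 48, whereas with the interferon score 9 rose over 50 and 10 over 48.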

How the data were processed

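RNA of 50 tumour biopsies was extracted with Trizol and 6 ug of each was labelled for an Affymetrix array, per the labels' protocols. The authors deposited 1 table of log2 expression values made with RMA, per the submitters' processing notes; the RMA version and settings are not given in the sources used here. RMA corrects background, normalises arrays to 1 distribution and summarises probes, so changes of low genes are understated. The table holds 34472 probe sets, of which 23521 named 1 gene in the platform annotation, 1814 several and 9137 none. Of the 23521, 23328 were matched to current symbols by gene identifier and 193 were not, leaving 22180 genes. Array data give no read depth, and the 1 array per tumour limits the precision; nothing states that tumours came from separate animals beyond their titles.

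Each gene was fitted on 1 standardised predictor at a time with limma 3.58.1 in R 4.3.3 (lmFit, eBayes with trend), with Benjamini-Hochberg adjustment over all genes tested and a threshold of 0.05. Genes with a mean below the 25th percentile of all probe sets were left out. The CD3 and CD79 predictors were the chain gene with the highest mean. Pearson and Spearman correlations used 100000 permutations (scipy 1.17.1), two-sided. The fit was tested on simulated data of independent genes without outlying tumours, which leaves the effect of mid60 and mid79 untested. The text names all 36 members, the 3 leading genes of other lists where described, the 10 genes most like Cd3e, and defining genes of other tissues; Bank1, Cd22 and Jchain were picked after their values were seen. Members and lists were chosen with earlier results of these data known. Alternatives were other tumours left out, other filters, probe set choices, ranks and array weights. The study gives 1 group, so no groups were compared. Promoter sequences are from RefSeq.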

Additional observations from a re-analysis of the deposited data

How the results depend on the processing

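Counts of members are over all 50 tumours unless stated, and under the alternatives run no member passed the test in the opposite direction. At an unadjusted p under 0.05, Blk had a slope of -0.048 log2 per SD of Cd4 (limma adjusted p = 0.264) and Foxp3 one of 0.046 per SD of proliferation (limma adjusted p = 0.252) without mid60 and mid79. Without mid60 and mid79, 8 members rose with Cd3e (25 over all 50), 0 with Cd79b (21) and 6 with Cd4 (21), and 0 fell with proliferation (14) and 0 with Erbb2 (20). Without mid100 as well, the counts were 9 with Cd3e, 0 with Cd79b, 3 with Cd8a (6), 3 with Cd4, 0 with proliferation and 0 with Erbb2. A lower limit at the 50th percentile of probe sets (5.27 log2) left 4 or 5 members in the test. Then 1 rose with Cd3e, 3 with Cd79b, 1 with Cd8a, 4 with Cd4, 2 with the interferon score (9) and 1 with the macrophage score (11), while 1 fell with proliferation and 2 with Erbb2. On ranks, 2 rose with Cd3e, 3 with Cd79b, 2 with Cd8a and 0 with Cd4, and 0 fell with proliferation and 0 with Erbb2; the cause was not tested. With array weights, 13 rose with Cd3e and 8 with Cd4, and 0 fell with proliferation and 6 with Erbb2; the cause was not tested. With the interferon score in the same model, 6 rose with the macrophage score. Leaving out each tumour in turn gave 19 to 26 members with Cd3e, 17 to 21 with Cd79b, 3 to 10 with Cd8a, 14 to 23 with Cd4, 6 to 13 with the interferon score and 6 to 14 with the macrophage score, and 0 to 18 that fell with proliferation and 12 to 23 with Erbb2. After mid60 and mid79 were removed, leaving out each of the other 48 in turn, an alternative chosen after seeing the data, gave 7 to 9 with Cd3e, 0 to 2 with Cd79b, 0 to 9 with Cd8a, 2 to 7 with Cd4, 9 to 12 with the interferon score and 8 to 11 with the macrophage score. No filter, the probe set with the largest SD and the mean of probe sets moved no count by over 1.5 times. Several members lie near the lower limit of 4.09 log2, where the array separates signal from background poorly. No paired analysis was possible because all tumours form 1 group.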

Other observations

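Further genes outside the 36, from the lymphoid tissue and plasma cell lists, gave a like picture of single tumours. Cxcl13, the chemokine that draws B cells into follicles, was 11.01 log2 in mid60 and 8.96 in mid79, but 11.5 in mid100, against a median of 5.67 over the 48 tumours without mid60 and mid79, and Cd79a was 4.45 in mid100, below its median of 4.47. Ighm, the antibody heavy chain of early B cells, was 11.12 in mid60 and 10.78 in mid79, and mid85 reached 10.2 among the 48, whose median was 7.57. Mzb1, a chaperone of antibody-secreting cells, was 6.46 and 6.30 against 5.12 to 5.79. These genes were picked after their values were seen, and carry no test.

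In mid147, 29 of the 31 readable members lay above the median of the 48 tumours, and Ptpn22, Il2rb, Klrd1, Ncr1, Cd4, Cd8b1 and Ikzf3 had their highest value among the 48 there. Its Cd79a was 4.78 and its Ms4a1 4.13, inside the range of the other tumours, but Cd22 (5.64) and the mean level of the plasma cell genes (6.80) were the highest of the 48. In mid114, 21 of the 31 lay above that median and Cd3g, Nkg7 and Xcl1 were the highest of the 48, while Cd8a (4.54, median 4.72), Cd8b1, Cd5, Il7r, Foxp3, Eomes, Ikzf1, Ms4a1, Cd79b and Blk lay below it. The mean level of the adipocyte markers was 6.74 in mid147 and 7.35 in mid114, against a median of 5.86 over the 48, and their part in these values was not tested. Both tumours were singled out after their values were seen. The share of all tested genes above that median in mid147 and mid114 is not given here, so the counts of 29 and 21 carry no test and describe the members only.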
